A study of Macaca mulatta with 7 samples.

Results

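The genes described here encode 5 subunits of the inhibitory receptors of the spinal cord and the 2 cation-chloride cotransporters that set neuronal chloride, and they were followed in single nuclei of rhesus monkey spinal cord. They were GABRA2 and GABRA5 (α subunits of the GABA-A receptor), GLRA1, GLRA3 and GLRB (2 α subunits and the β subunit of the glycine receptor), SLC12A5 (KCC2) and SLC12A2 (NKCC1). They were taken by symbol, and all 7 were found among 35432 gene identifiers, each under 1 identifier. Single-nucleus RNA-seq had been done on adult female rhesus monkeys (Macaca mulatta): the cervical, thoracic and lumbar cord at 0 dpi (days post injury) of an untreated animal aged 5 years, and the lumbar cord below a complete thoracic injury at 7 dpi and 14 dpi (animals aged 7 years) and at 30 dpi and 6 months (6 mpi; animals aged 6 years). By the study's account 1 animal per group was used for sequencing, so the 3 intact libraries share an animal and every injured library is another one. Each group was 1 library. No test between conditions was therefore possible, and animal, age, library and injury cannot be told apart.

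GABA and glycine open chloride channels, and the direction in which chloride then moves depends on the gradient that the transporters keep. KCC2 carries potassium and chloride out of mature neurons, which lets GABA and glycine hyperpolarize the cell, while NKCC1 carries sodium, potassium and chloride inward and is abundant in immature neurons and in several glial and epithelial cells. Glycine receptors are built from α subunits, which bind the ligand, together with GLRB, which ties the receptor to the gephyrin scaffold at the synapse. In the cord these receptors carry the fast inhibition of motor neurons and of dorsal horn circuits, and loss of KCC2 below a lesion is a known subject in work on spasticity and pain.

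On the Mmul_10 assembly 3 members lie on chromosome 5: GABRA2 at chr5:45572754-45726589 on the minus strand, GLRB at chr5:154722812-154815552 on the plus strand and GLRA3 at chr5:171930979-172110242 on the minus strand. GLRA1 lies at chr6:149298629-149405032 on the minus strand and SLC12A2 at chr6:125589251-125692416 on the plus strand. GABRA5 was annotated at chr7:2072099-2153064 on the minus strand and SLC12A5 at chr10:81212534-81251839 on the plus strand. The annotated spans run from 39.3 kb for SLC12A5 to 179 kb for GLRA3. Because reads of nuclei include introns, levels were compared for 1 gene between libraries or classes. A pair of genes was set together only as a share of their UMIs, to be compared between libraries.

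After filtering, 63726 nuclei were kept and 9941 of them fell into neuron-like clusters, between 805 nuclei in the intact thoracic and 2837 in the intact lumbar library. Library totals ranged from 45079131 UMIs (unique molecular identifiers, 1 per captured RNA molecule) at 6 mpi to 150987900 in the intact lumbar cord, and the median depth of a neuron-like nucleus from 21300 to 39040 UMIs. Levels are given as CPM (counts-per-million), the UMIs of a gene scaled to the UMIs of all nuclei of a class in a library. Values of intact libraries are listed in the order cervical, thoracic, lumbar, and those of injured libraries by time after injury, from 7 dpi to 6 mpi. The 95% intervals are exact Poisson intervals for levels, exact conditional binomial intervals for ratios of levels and exact Clopper-Pearson intervals for shares. All of them cover counting error only. In neuron-like nuclei the 8 neuron markers summed to 5185 to 5359 CPM in the intact and 4700 to 5002 CPM in the injured libraries. There the 8 oligodendrocyte markers summed to 200 to 460 CPM (13100 to 14560 CPM in their own class). The 8 microglia markers summed to 65.2 to 93.4 CPM in the intact and 89.5 to 124 CPM in the injured libraries (5283 to 8290 CPM in their own class). Between libraries 12 to 36 barcodes were shared, at most 0.379% of the smaller library.

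In neuron-like nuclei no member reached the size set for a call in any injured library. A gene was called where its CPM was at least 1.5-fold above or below the intact lumbar library and outside the range of the 3 intact libraries, with at least 50 UMIs in the library that had more. All 7 members had the UMIs needed, so 0 of 7 were called higher and 0 of 7 lower in each of the 4 injured libraries. Over all genes tested the shares called higher were 10.5%, 7.28%, 7.1% and 12.1% in these libraries, and the shares called lower 8.29%, 8.09%, 7.67% and 7.55%. At these shares a list of 7 genes with none called is not a result about the list.

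SLC12A5 came nearest to the line. Its level in neuron-like nuclei was 93.0 CPM in the intact cervical, 104 CPM in the intact thoracic and 90.4 CPM (95% interval 88.5 to 92.4) in the intact lumbar library. At 7 dpi it was 89.4 CPM (86.4 to 92.5), and the later libraries had 66.6 CPM (64.6 to 68.7), 60.8 CPM (58.8 to 62.8) and 69.2 CPM (65.9 to 72.7). The library at 7 dpi was thus just below the intact lumbar cord, the lowest intact library, with its interval reaching over the lumbar value. The 3 later libraries lay further below every intact library. Against the intact lumbar library the log2 ratio at 7 dpi was -0.02 (-0.07 to 0.04). It was -0.44 (95% interval -0.49 to -0.39) at 14 dpi, reached -0.57 (interval -0.63 to -0.52) at 30 dpi and was -0.38 (interval -0.46 to -0.31) in the chronic library, where a log2 ratio past 0.58 in size marks the 1.5-fold line. The intact cervical and thoracic libraries differed from the lumbar one by log2 ratios of 0.04 (-0.01 to 0.09) and 0.21 (0.14 to 0.26). SLC12A5 was past the line at 14 dpi when every nucleus was thinned to 1000 UMIs, and at 30 dpi without doublet removal or against the mean of the 3 intact libraries.

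SLC12A2, the inward transporter, stayed close to its intact levels in neuron-like nuclei. The intact libraries gave 90.5, 85.3 and 85.8 CPM. The injured ones gave 84.4, 87.2, 93.4 and 93.8 CPM. The last 2 libraries lay just above the intact range, with log2 ratios of 0.12 (0.07 to 0.17) and 0.13 (0.06 to 0.20). These ratios changed sign under some of the processing alternatives.

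Both transporters can be set against each other within a library, which cancels the scaling to the class total. Of the UMIs of SLC12A5 and SLC12A2 together in neuron-like nuclei, SLC12A5 held 50.7% in the intact cervical, 54.99% in the intact thoracic and 51.3% (95% interval 50.5 to 52.1) in the intact lumbar library. The share was still 51.4% (50.2 to 52.7) at 7 dpi, and in the later libraries 43.3% (42.3 to 44.3), 39.4% (38.4 to 40.4) and 42.5% (40.9 to 44.1). The 3 later libraries again stood below all 4 others, and their intervals did not meet those of the others. With nuclei thinned to 1000 UMIs this separation was lost, since the intact cervical library and the one at 6 mpi both came to 47.1%, and that at 7 dpi to 58.2%. In the SLC17A6-high and the GAD-high sets of sub-clusters the 3 later libraries were again the lowest. In SLC17A6-high sub-clusters, marked by the vesicular glutamate transporter, the share was 49.4% in the intact lumbar library and 50.5%, 42.4%, 39.5% and 42.03% in the injured ones. The SLC17A6-high set is not 1 transmitter type: the sub-clusters numbered N1, N2 and N3, with 2191 of its 5634 nuclei, also had 51.7 to 60.7 CPM of GAD2 and more of the glycine transporter SLC6A5 (64.7 to 113 CPM) than the other 13 sub-clusters, where it was at most 2.1 CPM. Without them the share was 51.03% in the intact lumbar library, and 53.9% (50.98 to 56.8), 45.8% (43.8 to 47.8), 44.8% (42.6 to 46.95) and 46.5% (43.5 to 49.6) after injury. In GAD-high sub-clusters, marked by the GABA-synthesizing enzymes, it was 54.8% in the intact lumbar library and 56.5%, 48.2%, 44.4% and 47.1% in the injured ones. The oligodendrocyte markers, of the class with the most SLC12A2, summed to 341 CPM in the neuron-like nuclei of the intact lumbar library and to 242, 200, 341 and 337 CPM in the 4 injured ones, and their part in the share was not tested.

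**Figure D1:**
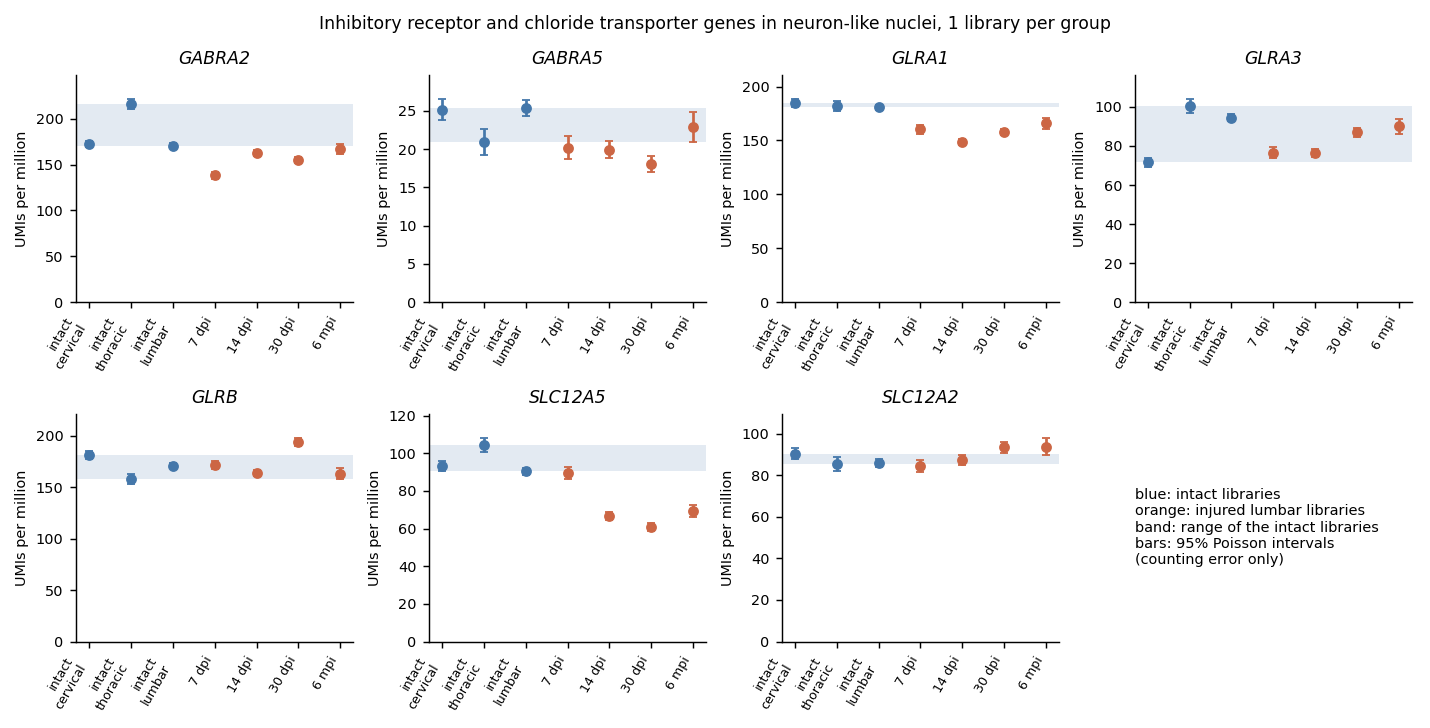
Level of each of the 7 genes in neuron-like nuclei, in CPM of the class on linear axes from 0, with 1 point per library (blue, intact; orange, injured lumbar), 95% Poisson intervals as bars and the range of the intact libraries as a band. SLC12A5 is at the lower edge of its band at 7 dpi, with 89.4 CPM, and well below it in the later libraries, with 66.6, 60.8 and 69.2 CPM. GLRA1 lies below its narrow band in all 4 injured libraries, and SLC12A2 stays within a few CPM of its band.

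Among the glycine receptor subunits, GLRA1, the adult α subunit of most spinal glycine receptors, was slightly lower in every injured library, though not at 6 mpi after thinning. Its neuron-like level was 185, 182 and 181 CPM in the intact libraries, against 160, 148, 158 and 166 CPM after injury. All 4 injured libraries were below the 3 intact ones, by log2 ratios to the intact lumbar cord of -0.17, -0.28, -0.19 and -0.12. With nuclei thinned to 1000 UMIs the last of these was 0.11. The 8 summed neuron markers were split likewise, with 5185 to 5359 CPM in intact and 4700 to 5002 CPM in injured libraries. Their relation to the GLRA1 value was not tested. GLRA3, an α subunit known from the superficial dorsal horn, gave 71.6, 100.4 and 94.6 CPM in intact cord, and 76.5, 76.4, 87.05 and 89.99 CPM after injury. None of the injured libraries left the intact range, and the difference between segments, a log2 ratio of -0.40 (-0.46 to -0.35) for the cervical against the lumbar library, was larger than any of theirs. GLRB gave 181, 158 and 171 CPM in the intact libraries and 172, 164, 194 and 163 CPM in the injured ones. Only the library at 30 dpi was above the intact range, by a log2 ratio of 0.18 (0.15 to 0.22) to the intact lumbar cord, which was -0.01 in SLC17A6-high sub-clusters without N1, N2 and N3. GLRA3 at 7 dpi, 30 dpi and 6 mpi and GLRB at 7 dpi also changed sign under some setting. As a ratio within the library, GLRA3 held 34.4% (33.8 to 35.0) of the UMIs of GLRA3 and GLRA1 in the intact lumbar library, 27.9% and 35.6% in the intact cervical and thoracic libraries, and 32.3%, 33.98%, 35.6% and 35.2% in the injured ones. The injured libraries again fell within the spread between intact segments.

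Both GABA-A receptor subunits were also somewhat lower in most injured libraries. GABRA2, whose subunit is known in the cord for its part in pain control, gave 172, 216 and 171 CPM in intact cord and 138, 163, 155 and 167 CPM below the injury. All injured libraries were below the intact range, with the lowest log2 ratio, -0.31 (-0.35 to -0.26), at 7 dpi. At 6 mpi the ratio was -0.03 (-0.08 to 0.02), within counting error of the intact lumbar library, and the direction at 14 dpi and 6 mpi turned under some of the processing alternatives (to 0.07 and 0.00). GABRA5, known for extrasynaptic receptors and tonic inhibition, was 25.1, 20.9 and 25.4 CPM in the intact and 20.2, 19.9, 18.03 and 22.8 CPM in the injured libraries. The lowest ratio, at 30 dpi, was -0.49 (-0.60 to -0.39) on the log2 scale, and the value at 6 mpi was inside the intact range. GABRA5 was past the 1.5-fold line at 30 dpi when nuclei were thinned to 1000 UMIs.

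Over the list, 5, 4, 4 and 3 of the 7 members lay below the intact range in the injured libraries, and 0, 0, 2 and 1 lay above it. Over all genes tested 35.2%, 41%, 38.8% and 33.4% lay below and 40.8%, 27.1%, 30.6% and 39.96% above. The median log2 ratio of the members was -0.17, -0.28, -0.14 and -0.07, against 0.04, -0.05, -0.02 and 0.05 over all genes tested. Between intact segments 0 of 7 members passed the 1.5-fold line in the cervical library, where 2.31% of all genes were higher and 1.97% lower, and 0 of 7 in the thoracic library, where 4.01% were higher and 4.66% lower.

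The neuron-like nuclei were divided into 38 sub-clusters, with the members, their related genes and the transmitter genes left out of the genes used for clustering, and 32 sub-clusters held at least 100 nuclei. GLRA3 varied most among them in proportion. It ranged from 10.3 CPM in N24, a GAD-high sub-cluster led by ATP8B4 and RORB, to 424 CPM in N14, an SLC17A6-high sub-cluster led by LRP2, SST and NPSR1. N14 held between 380 and 448 CPM of GLRA3 in each of the 7 libraries and N24 between 2.2 and 19.7 CPM, so these 2 sub-clusters did not overlap in any library. The next highest, N18 (SLC17A6-high, led by ACVR1C, SLC22A3 and TAFA4), had 309 CPM and ranged from 250 to 440 CPM over libraries, which overlaps the range of N14.

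GABRA2 was highest in the same sub-cluster, at 449 CPM in N14, followed by 397 CPM in N11, which was led by the neuropeptide genes NMU and TAC3. It was lowest in N24, at 34.1 CPM. Over the 7 libraries N14 ranged from 315 to 496 CPM, N11 from 275 to 463 CPM and N24 from 10.5 to 57.5 CPM. N14 and N11 overlapped, and both stood apart from N24. GLRA1 had a different order, with the highest level, 341 CPM, in N32 (SLC17A6-high, led by COL27A1 and SLCO5A1) and 298 CPM in N29 (GAD-high, led by RORB and THSD4). The lowest GLRA1 levels were 60.8 CPM in N21 and 67.7 CPM in N14, so the sub-cluster with the most GLRA3 was among those with the least GLRA1. GABRA5 ranged from 10.1 CPM in N6 to 37.6 CPM in N22, and GLRB from 60.01 CPM in N6 to 230 CPM in N2. Among sub-clusters of at least 100 nuclei N6 had the lowest median depth (13330 UMIs) and N2 the highest (62890 UMIs). The part of depth in the levels of N6 and N2 was not tested.

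The transporters were spread more evenly. SLC12A5 ranged over the sub-clusters from 44.2 CPM in N6 to 144 CPM in N24, with 134 CPM in N12, another GAD-high sub-cluster. N24 lay between 105 and 190 CPM and N12 between 96.3 and 164 CPM over the 7 libraries, while N6 lay between 35.8 and 62.9 CPM. N24 therefore combined the highest SLC12A5 with the lowest GABRA2 and GLRA3. SLC12A2 ranged from 45.8 CPM in N13 to 130 CPM in N4. N4 was led by the oligodendrocyte genes ABCA8, MBP and MOG, whose own class holds the most SLC12A2, and next came N30 at 118 CPM.

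**Figure D2:**
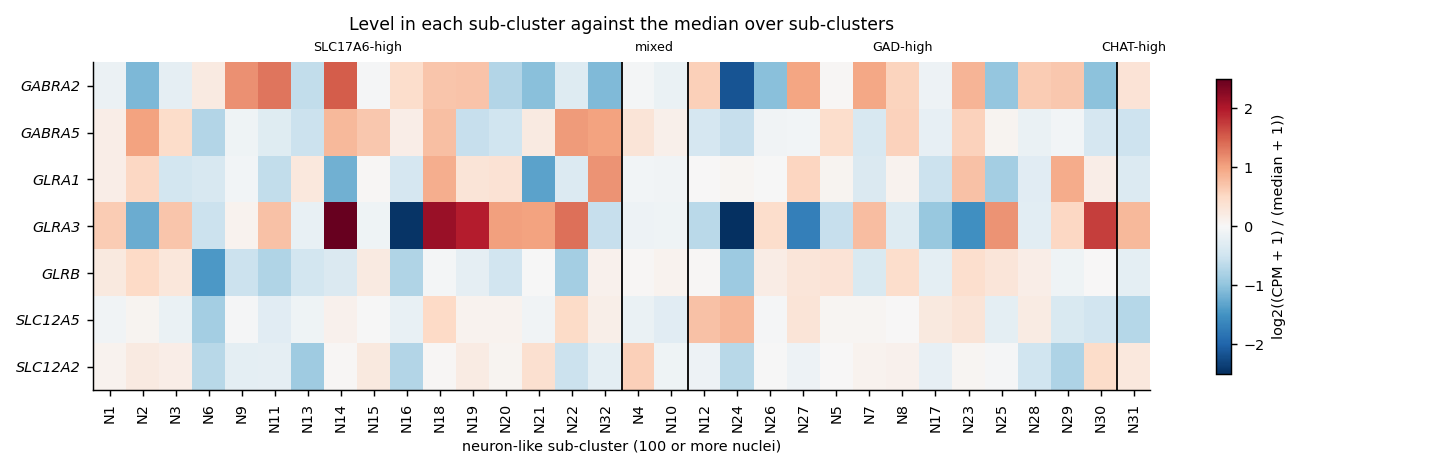
Levels of the 7 genes (rows) in the 32 neuron-like sub-clusters of at least 100 nuclei (columns, grouped by their transmitter genes), all libraries summed, as the log2 of CPM + 1 over the median of the sub-clusters. The colour scale is capped. The row of GLRA3 has the strongest contrast, from N14 at 424 CPM to N24 at 10.3 CPM, and the rows of the transporters are the palest.

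Between the SLC17A6-high and GAD-high sets GLRA3 differed in the same direction in every library. In the intact lumbar library it was 111 CPM (109 to 114) in SLC17A6-high and 72.7 CPM in GAD-high sub-clusters, and at 6 mpi 109 and 55.5 CPM. Single sub-clusters of at least 100 nuclei overlapped widely between the sets. Over all libraries GLRA3 ran from 11.6 to 424 CPM in SLC17A6-high and from 10.3 to 229 CPM in GAD-high ones. Within the GAD-high nuclei SLC12A5 was 124 CPM in the sub-clusters with less SLC6A5, the neuronal glycine transporter (2.1 to 60.9 CPM), and 87.2 CPM in those with more of it (78.2 to 293 CPM) in the intact lumbar library, and this order also held in the other 6 libraries, with 104 against 70.8 CPM at 6 mpi. The first set was itself split over all libraries, with 134 and 144 CPM in N12 and N24 but 78.6 and 100.2 CPM in N26 and N27, which overlap the 57 to 100.3 CPM of the second set's sub-clusters of at least 100 nuclei. From 14 dpi on, the injured libraries were lower for SLC12A5 in both sets. SLC17A6-high nuclei went from 87.04 CPM in the intact lumbar library to 86.4, 65.2, 59.1 and 67.9 CPM, and GAD-high nuclei from 96.3 CPM to 103, 76.4, 69.5 and 80.2 CPM. At 7 dpi neither set was below the intact lumbar library by more than its counting interval.

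From 14 dpi on SLC12A5 was lower in most neuron-like sub-clusters, of which N4 was led by oligodendrocyte genes and N10 by genes of microglia and other immune cells (INPP5D, LYN and IKZF1). It was lower than in the intact lumbar library in 13 of the 32 sub-clusters at 7 dpi, and in 30, 32 and 27 of them in the later libraries. The number that were lower by at least 1.5-fold was 0, 5, 14 and 6. The median log2 ratio over sub-clusters was 0.09, -0.43, -0.54 and -0.32, close to the values of the pooled nuclei after 7 dpi. Without N4 and N10, a choice made after seeing the data, it was lower in 12, 28, 30 and 25 of 30, by at least 1.5-fold in 0, 5, 13 and 5, with medians of 0.14, -0.42, -0.53 and -0.32. At 30 dpi the ratios of these 30 ran from -0.94 (-1.93 to -0.06) in N29 to -0.01 (-0.70 to 0.67) in N6, the sub-cluster with the least SLC12A5, where 31 and 50 UMIs were compared. Sub-clusters of 1 library come from 1 animal and are not replicates, so these counts describe how the difference was distributed among sub-clusters and do not measure its error.

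No other member was lower in all of its sub-clusters in any injured library. GLRA1 was lower in 26, 25, 27 and 20 of the 32, with median log2 ratios of -0.20, -0.25, -0.26 and -0.21. SLC12A2 was higher in 14, 20, 22 and 24 sub-clusters. GLRB was higher in 23 sub-clusters at 30 dpi but only in 14, 12 and 11 of the other injured libraries. GABRA2 was lower in 23, 18, 19 and 17 of the 31 or 32 sub-clusters with enough UMIs, GLRA3 in 17, 20, 18 and 18 of 28, and GABRA5 in 9 of 11, 10 of 12, 10 of 11 and 7 of 11.

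**Figure D3:**
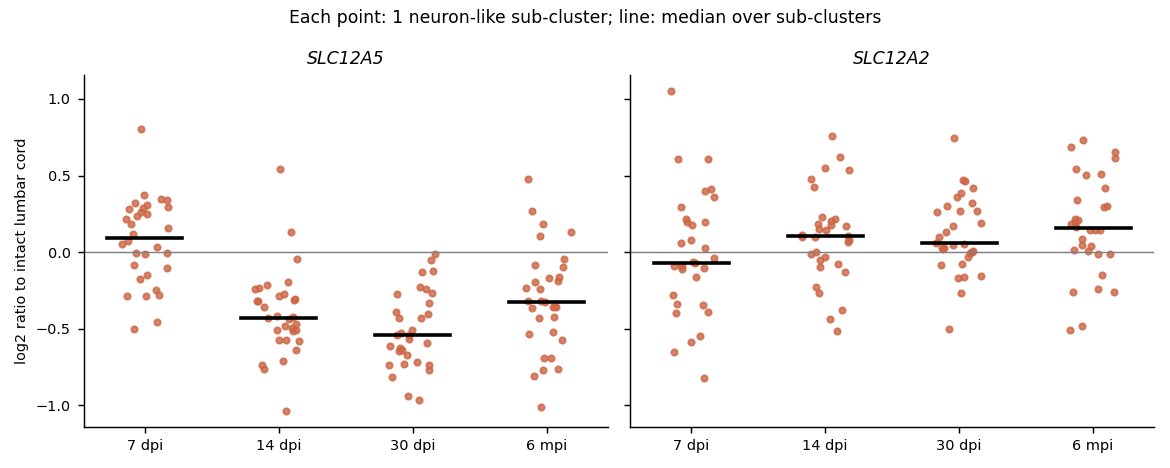
Log2 ratio of each injured library to the intact lumbar library in each neuron-like sub-cluster (1 point each) for SLC12A5 and SLC12A2, with the median over sub-clusters as a line. For SLC12A5 the points lie on both sides of 0 at 7 dpi, and 30, 32 and 27 of 32 lie below it at 14 dpi, 30 dpi and 6 mpi, while the SLC12A2 points straddle 0 throughout.

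The CHAT-high sub-clusters, marked by the acetylcholine-synthesizing enzyme, which motor neurons carry, were few: 64 nuclei in the intact lumbar, 40 in the intact cervical and 19 in the intact thoracic library, and 32, 25, 15 and 15 in the injured ones. SLC12A5 in them was 76.6, 69.8 and 94.1 CPM in intact cord and 57.5, 40.7, 57.3 and 60.6 CPM after injury. All 4 injured libraries were below the 3 intact ones. All 4 log2 ratios to the intact lumbar library were past the 1.5-fold line, from -0.63 (-1.03 to -0.26) at 6 mpi to -1.21 (interval -1.52 to -0.91) at 14 dpi, on 107, 119, 89 and 68 UMIs against 387. That library was the highest of the intact ones. The intact cervical and thoracic libraries were below it by log2 ratios of -0.30 (-0.52 to -0.07) and -0.43 (-0.74 to -0.13). The share of SLC12A5 in the UMIs of both transporters did not follow the order seen in the other sets: it was 45.8%, 45.8% and 56.1% (52.3 to 59.8) in the intact and 38.9% (33.1 to 44.95), 31.2% (26.6 to 36.2), 44.7% (37.7 to 51.9) and 44.7% (36.7 to 53.01) in the injured libraries. GABRA5 passed the 1.5-fold line as well, at 7.5, 10.9, 8.4 and 11.6 CPM against 19.7 CPM, but on only 14, 32, 13 and 13 UMIs. GABRA2 (122 against 214 CPM) and GLRA3 (34.8 against 61.3 CPM) passed it at 30 dpi alone. In all 0 members were higher and 2, 2, 4 and 2 of 7 were lower, where 15.8%, 16.7%, 17.5% and 24.7% of all genes tested in these nuclei passed in either direction. The 3 CHAT-high sub-clusters differed in SLC12A5 and in their share of each library. N34, the one with the deepest nuclei, had 137 CPM on 17 nuclei in the intact lumbar library, and 67.5, 40.4, 70.7 and 59.1 CPM on 8, 8, 2 and 4 nuclei after injury. Its median depth was lowest in the intact lumbar library, at 84530 UMIs. It was 193300 and 176400 UMIs in the cervical and thoracic libraries, and 113400, 165600, 226300 and 136700 UMIs after injury. The part of depth in these values was not tested. N31, with the most nuclei, had 57.8 CPM on 39 nuclei and then 47.3, 28.2, 40.2 and 80.4 CPM on 19, 12, 8 and 7 nuclei. In N34 every injured library was below the intact ones, which had 90.9 and 87.2 CPM in the cervical and thoracic cord, while in N31, which also held 74.1 CPM of GAD2, the library at 6 mpi was above the intact lumbar one. In N36 the intact libraries had 61.9, 108 and 86.03 CPM on 9, 1 and 8 nuclei and the injured ones 55.1, 60.6, 63.4 and 50.5 CPM on 5, 5, 5 and 4 nuclei, so the groups overlapped.

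Outside neurons the members split by class. GLRA1, GLRA3 and SLC12A5 were nearly absent from other classes: neuron-like nuclei held 98.2%, 98.7% and 97.5% of their UMIs, and the highest level in oligodendrocyte-like, oligodendrocyte precursor (OPC)-like, astrocyte-like or microglia-like nuclei of any library was 11.1, 4.7 and 9.9 CPM. GLRB was as high in OPC-like nuclei (156 to 196 CPM) as in neuron-like ones (158 to 194 CPM), with the neuron-like value the higher one in 3 of 7 libraries, and both stood far above oligodendrocyte-like (27.8 to 49.5 CPM), astrocyte-like (12.6 to 31.3 CPM) and microglia-like nuclei (3.1 to 6.9 CPM). GABRA2 was lower in OPC-like (78.3 to 126 CPM) than in neuron-like nuclei (138 to 216 CPM) in 7 of 7 libraries. GABRA5 was found in all 5 classes, with 18.03 to 25.4 CPM in neuron-like, 15.04 to 21.95 CPM in OPC-like, 11.2 to 14.8 CPM in oligodendrocyte-like, 4.2 to 11.4 CPM in astrocyte-like and 4.9 to 13.2 CPM in microglia-like nuclei.

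SLC12A2 had most of its UMIs outside neurons. Oligodendrocyte-like nuclei had 320.4 to 435 CPM in the 7 libraries and neuron-like nuclei 84.4 to 93.8 CPM, and 61.2% of its UMIs came from the former. Within that class it was 339, 331 and 320.4 CPM in intact cord and 375, 435, 431 and 336 CPM after injury, short of the 1.5-fold line. Ependymal-like nuclei (6 to 318 per library) held 46.8 to 299.9 CPM. In OPC-like nuclei SLC12A2 was 77.2, 63.2 and 41.9 CPM in intact cord and 43.9, 48.6, 87.4 and 73.9 CPM after injury, called higher at 30 dpi only, and there the intact cervical and thoracic libraries were also past 1.5-fold of the lumbar one.

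**Figure D4:**
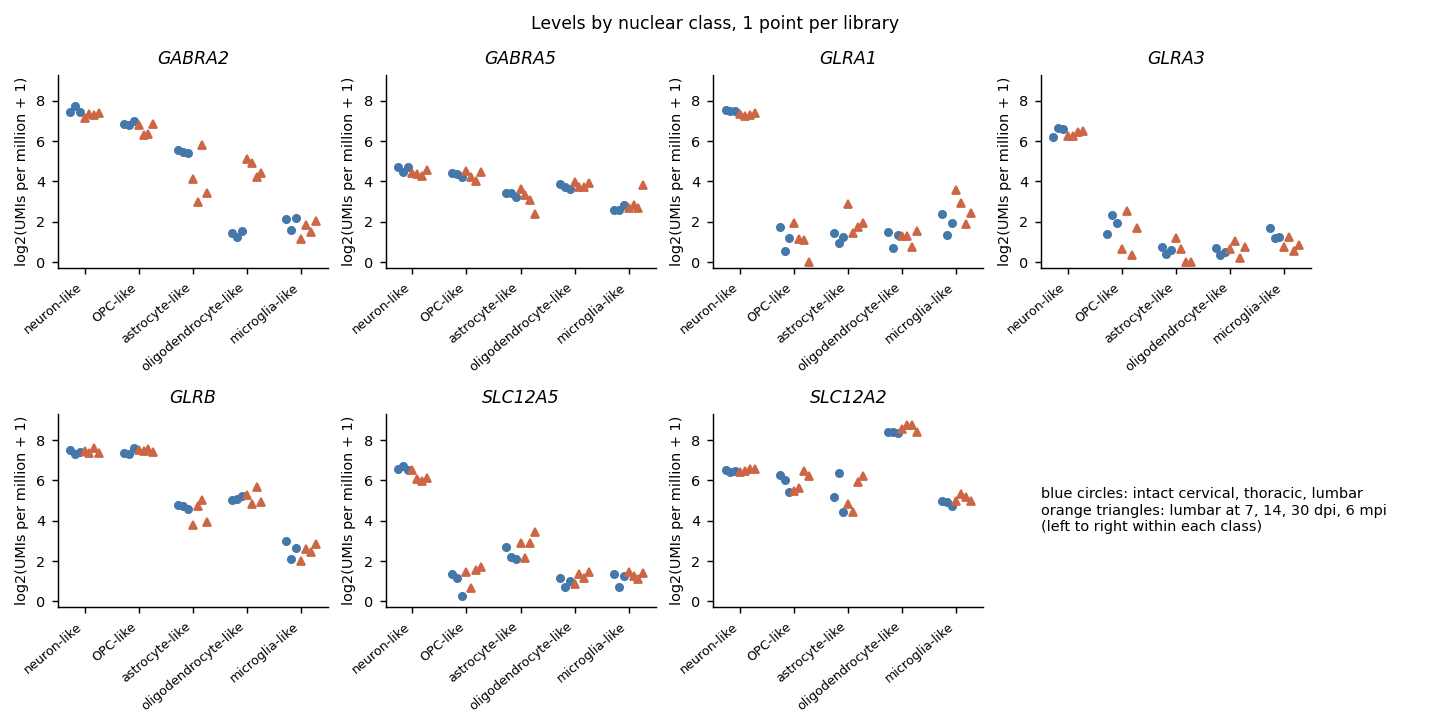
Levels of the 7 genes by nuclear class on a log2 scale of CPM + 1, with 1 point per library (blue circles, intact; orange triangles, injured lumbar). Among the 5 classes plotted GLRA1, GLRA3 and SLC12A5 are far higher in neuron-like nuclei than in any other, GLRB is about as high in OPC-like nuclei, SLC12A2 is highest in oligodendrocyte-like nuclei, and GABRA2 in oligodendrocyte-like nuclei separates intact from injured libraries.

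The largest log2 ratio of any member in the classes compared was that of GABRA2 in oligodendrocyte-like nuclei. It was 1.8, 1.3 and 1.9 CPM in intact cord (72, 58 and 48 UMIs). After injury it was 33.6 CPM (31.2 to 36.1), 29.3 CPM (26.7 to 32.1), 17.5 CPM (15.99 to 19.2) and 20.03 CPM (17.2 to 23.2), on 739, 453, 475 and 177 UMIs. No injured library overlapped an intact one. The fold over the intact lumbar library was 17.8, 15.5, 9.304 and 10.6, the log2 ratio being 4.16 (3.73 to 4.61) at 7 dpi and 3.96, 3.22 (2.79 to 3.68) and 3.41 in the later libraries. Of 12270, 11754, 12224 and 11649 genes tested in that class, 50, 23, 63 and 34 had a higher ratio. The base of these ratios is near the floor, so their size is uncertain. The intact oligodendrocyte-like values lay below those of microglia-like nuclei in the same libraries (3.4, 2.0 and 3.5 CPM). GABRA2 was the 1 member called of the 4 that had enough UMIs, where 28.2%, 17.8%, 19.4% and 26.5% of all genes were called in either direction.

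The level stayed well below that of neuron-like nuclei, where GABRA2 was 138 to 167 CPM in the injured libraries. With each nucleus thinned to 1000 UMIs, 0.2997%, 0.152% and 0.173% of the oligodendrocyte-like nuclei of the intact libraries had a GABRA2 UMI, and 3.64% (3.07 to 4.29), 3.16%, 1.87% (1.40 to 2.45) and 2.38% of those of the injured ones. Unthinned, the shares were 1.43%, 1.29% and 1.32% in the intact and 12.1%, 11.9%, 8.22% and 6.20% in the injured libraries, at median depths of 5714 to 8624 and 3508 to 8052 UMIs. Microglia-like nuclei, which should lack the subunit, had 1.2 to 3.5 CPM in the 7 libraries, with no injured library above the intact range. The 8 neuron markers summed to 145 to 170 CPM in the oligodendrocyte-like nuclei of the intact libraries and to 124 to 162 CPM in the injured ones, and the 6 OPC markers to 428 to 454 CPM and 282 to 500 CPM. The 8 microglia markers were higher in every injured library than in any intact one. They summed to 17.9, 17.1 and 9.98 CPM in the intact and 40.1, 43.55, 19.9 and 43.1 CPM in the injured libraries. The part of all these markers in the GABRA2 value was not tested.

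Intact and injured oligodendrocyte-like nuclei mostly fell into different clusters. Clusters 1 and 4 held most of them after injury and clusters 2, 8, 10 and 12 most of them in the intact cord. In cluster 1 GABRA2 was 47.2, 34.1, 21.2 and 24.5 CPM in the injured libraries, and in cluster 4 it was 25.8, 26.3, 15.3 and 15.7 CPM. In cluster 2 the intact libraries had 2.2 to 2.9 CPM, and the injured ones 139, 30.7, 25.5 and 34.9 CPM on 15, 75, 36 and 202 nuclei, with 7, 11, 9 and 24 UMIs. Clusters 8, 10 and 12 held fewer injured nuclei still, with 0 to 12 GABRA2 UMIs per library, and no UMI in cluster 10 at 30 dpi or in cluster 12 at 7 dpi. Conversely, the 59 nuclei of the intact lumbar library in cluster 4 held 1 GABRA2 UMI and the 49 in cluster 1 held 0. These counts are small, and the part of cluster make-up in the difference between libraries was not tested. Without doublet removal the log2 ratios were 3.34, 3.15, 2.40 and 2.55.

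**Figure D5:**
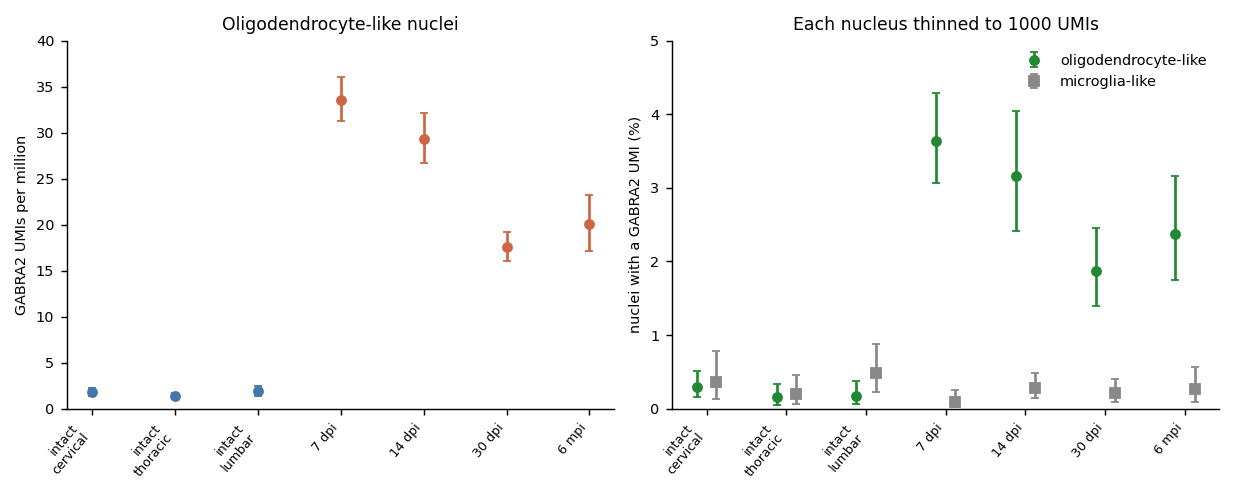
GABRA2 in oligodendrocyte-like nuclei: left, CPM with 95% Poisson intervals; right, the percentage of nuclei with a GABRA2 UMI after thinning each to 1000 UMIs, with exact binomial intervals, beside microglia-like nuclei (grey). The intact libraries sit between 1.3 and 1.9 CPM and the injured ones between 17.5 and 33.6 CPM, while the grey points stay under 0.5%.

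Smaller differences were called in other classes. In microglia-like nuclei GLRA1 was 4.2, 1.5 and 2.9 CPM in intact cord and 11.1, 6.6, 2.8 and 4.3 CPM after injury, called higher at 7 dpi and 14 dpi with log2 ratios of 1.95 (1.29 to 2.68) and 1.20 (0.53 to 1.94). The thinned share of nuclei with a GLRA1 UMI was 0.424%, 0.119% and 0.144% in the intact and 0.951%, 0.651%, 0.233% and 0.477% in the injured libraries (3 to 33 nuclei in each), against 14.3% in neuron-like nuclei of the intact lumbar cord. Unthinned it was 1.76%, 0.676% and 0.959%, and then 4.64%, 2.80%, 1.66% and 1.17%. On thinned UMIs the log2 ratios were 2.81, 2.18, 0.70 and 1.73, all of them above the 1.5-fold size. Their base is very small, since only 0.144% of the intact lumbar nuclei had a thinned UMI. The thinned share at 30 dpi (0.233%) lay within the range of the intact libraries (0.119% to 0.424%). Without thinning the ratio at 30 dpi was -0.06. That at 6 mpi was 0.60 (1.513-fold), on 27 UMIs against 21, too few for a call. Different clusters held most of the class in these libraries: cluster 0 had 84.6% of the intact lumbar nuclei (2.59 CPM of GLRA1), cluster 5 had 84.5% of those at 7 dpi (9.86 CPM) and cluster 3 had 88.9% of those at 14 dpi (6.48 CPM). Cluster 25, led by the cell division genes TOP2A, MELK and MKI67, had 12.85% of the nuclei at 7 dpi. It held 50 of the 173 GLRA1 UMIs of that library's class, at 17.1 CPM. The 8 neuron markers summed to 569 CPM in the microglia-like nuclei of the intact lumbar library and to 656 and 647 CPM at 7 dpi and 14 dpi, and their part in the GLRA1 value was not tested. GABRA5 was called higher there at 6 mpi, at 13.2 against 6.1 CPM, and there clusters 16 and 5 held 51.2% and 38.8% of the nuclei and cluster 0 held 1.65%. Per library 1, 1, 0 and 1 of 3, 5, 4 and 2 members tested were called, where 32.5%, 26.1%, 30% and 36.4% of all genes were.

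In OPC-like nuclei GABRA2 was 113, 109 and 126 CPM in intact cord and 111, 78.3, 81.03 and 112 CPM in the injured libraries, called lower at 14 dpi and 30 dpi with log2 ratios of -0.68 (-0.96 to -0.41) and -0.63 (-0.84 to -0.43). With SLC12A2 at 30 dpi that made 0, 1, 2 and 0 of 4 members tested, where 18.3%, 15.3%, 18.1% and 22.1% of all genes were called. In astrocyte-like nuclei, of which the injured libraries held 98 to 255, GABRA2 was 45.8, 42.9 and 40.9 CPM in the intact libraries and 16.4, 6.8, 55 and 9.9 CPM after injury, on 13, 12, 95 and 7 UMIs. The library at 30 dpi went against the other 3. Clusters 9 and 15 made up this class, and cluster 15 held more of it than cluster 9 at 14 dpi and 6 mpi only. The called members were 2, 1, 0 and 3 of 4, all lower, with background shares of 35.8%, 18.9%, 22.2% and 32.6%, and those called at 6 mpi rested on 10 or fewer UMIs each.

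A list of 50 related genes was read beside the members in neuron-like nuclei: 17 other GABA-A subunits, 2 glycine receptor genes, 2 GABA-B receptor genes, 7 scaffold and assembly genes, 15 genes of chloride handling and 7 of transmitter supply. Of these 43 had the UMIs needed, and 2, 1, 1 and 4 were called higher and 3, 1, 0 and 2 lower in the injured libraries, against the background shares given for neuron-like nuclei. None of the 10 GABA-A subunits tested was called in any injured library, and their median log2 ratio was -0.12, 0.00, 0.07 and -0.03. In the scaffold and assembly genes it was 0.09, -0.23, -0.01 and -0.18, with 1 call, SHISA7 lower at 7 dpi (named after its value was seen). In transmitter supply the median log2 ratio was -0.13, -0.19, -0.29 and -0.44, and in chloride handling 0.14, 0.03, 0.01 and 0.02. The calls in chloride handling other than SLC12A7, named here after their values were seen, were SLC12A1 (higher at 7 dpi and 6 mpi), SLC12A4 and SLC12A9 (higher at 6 mpi), SLC12A8 (lower at 6 mpi) and WNK4 (lower at 7 dpi, on 8 UMIs).

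GAD2, a GABA-synthesizing enzyme, was the 1 related gene called lower in 3 injured libraries. It was 93.2, 118 and 114 CPM in the intact libraries and 71.3, 65.4, 79.9 and 53.02 CPM after injury. The log2 ratio to the intact lumbar library ran from -0.52 (-0.57 to -0.47) at 30 dpi, the library not called, to -1.11 (-1.20 to -1.02) at 6 mpi. Within GAD-high nuclei, a set made from GAD levels, it was 243, 269.9 and 265 CPM in the intact and 178, 160, 181 and 140 CPM in the injured libraries. GAD-high nuclei made up 27.4%, 34.8% and 35.7% of neuron-like nuclei in the intact libraries. In the injured ones they made up 28.2%, 32.4%, 30.8% and 28.25%. The part of this mix of neurons in the lower GAD2 value was not tested. SLC12A7 (KCC4, another potassium-chloride cotransporter) was called higher in all 4 injured libraries but on 44, 99, 143 and 43 UMIs, at 1.2, 1.6, 2.4 and 1.9 CPM, where the intact libraries had 1.03, 0.72 and 0.67 CPM, and the intact cervical library was itself past 1.5-fold of the lumbar one. Microglia-like nuclei held 37.4 to 80.3 CPM of it, and the microglia markers in neuron-like nuclei were also higher in the injured libraries than in the intact lumbar one. Their part in the value was not tested.

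The genes whose levels followed each member most closely over the 32 sub-clusters were read off as a description, by Pearson's r of log2(CPM + 1) among 8596 genes. For SLC12A5 they were SV2A, RIMS2 and GRIN1 (r = 0.77, 0.75 and 0.75), which encode a synaptic vesicle protein, a presynaptic active zone protein and the obligatory NMDA receptor subunit. Across the injured libraries GRIN1 was 60.8, 55.7, 46.8 and 47.8 CPM against 64.5 CPM in the intact lumbar library, SV2A was 58.03, 42.3, 47.7 and 51.1 against 54.8 CPM, and RIMS2 was 2086, 2440, 2382 and 2276 against 2195 CPM. The intact cervical and thoracic libraries had 72.6 and 74.2 CPM of GRIN1, 48.6 and 43 CPM of SV2A and 2106 and 2224 CPM of RIMS2. GRIN1 was thus below the intact range in every injured library, while SV2A was inside it at 30 dpi and 6 mpi. None of the 3 was as far below the intact lumbar library as SLC12A5 at 14 dpi or 30 dpi, where RIMS2 was above it, while at 6 mpi GRIN1 was further below, with a log2 ratio of -0.43 against -0.38 for SLC12A5. For GLRB they were PPM1E, BEND6 and PIK3CB (r = 0.89, 0.89 and 0.88), for GABRA5 DNMT1, CAMKK2 and DENND4B (0.82, 0.76 and 0.76), and for SLC12A2 FGF12, COLGALT2 and ACSL1 (0.77, 0.76 and 0.75). For GLRA3 they were TXNRD3, ZMIZ1 and ABCB1 (0.71, 0.69 and 0.67), for GABRA2 the potassium channel gene KCNQ3, DCP1B and the GABA-A subunit gene GABRB1 (0.67, 0.63 and 0.60), and for GLRA1 ICA1, CREG1 and SPDL1 (0.61, 0.57 and 0.56). Among the members the closest pair was GLRB and SLC12A2 (r = 0.57), followed by GABRA5 and GLRB (0.44) and GLRA3 and SLC12A2 (0.39). The points share their libraries and differ in depth.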

How the data were processed

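The authors isolated nuclei from spinal cord, prepared 10x Chromium version 3 libraries, counted UMIs on the Mmul_10 assembly with Cell Ranger (6.0.0 in the submitters' processing notes) and deposited 1 matrix of raw UMI counts per library, with no normalization. Barcodes with more than 500 genes, more than 1000 UMIs, under 10% mitochondrial and under 5% hemoglobin UMIs were kept, and the 5% with the highest doublet scores in each library were removed (3358 nuclei). The cut-offs and the 5% follow the study's methods, but the scores came from Scrublet in scanpy, which was not the study's doublet caller. The 69332 barcodes deposited became 63726 nuclei. The 2000 variable genes were chosen in scanpy 1.11.5, without the members and related genes among them. Nuclei were clustered with leidenalg 0.10.2 (Leiden, resolution 1) on a shared-neighbour graph of 30 components and 20 neighbours. Each cluster was named "-like" from fixed markers. A bar on the second-best class was added after the clusters were seen and left the neuron-like class as it was. The neuron-like nuclei were clustered again without transmitter genes.

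UMI counts were summed per class and library and divided by the class total. With 1 library per group there was no test, and calls rest on size (1.5-fold). The ratio and call steps were run on simulated Poisson counts, drawn from the same profile for every library with known changes put into that at 7 dpi. The simulation had no variation between animals or libraries, so it cannot show how calls behave between single animals. In the feature files 959 identifiers without a symbol were named from the reference annotation, and identifiers sharing a symbol were kept apart, under the reference's name where that was unique. Members and lists were chosen with earlier results of these data known. Named genes were the 7 members, the related genes called in 1 direction in at least 3 of 4 injured libraries, and the 3 genes most like each member. Other genes named from the related list were chosen after their values were seen. Alternatives are given in the closing section. Animals' pathology and the lesion samples were not analysed here. Tools were Python 3.11.15, scipy 1.17.1 and pandas 2.3.3.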

Additional observations from a re-analysis of the deposited data

How the results depend on the processing

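No paired analysis was possible because each group has 1 library, and for the same reason no library could be left out. The count of members past the 1.5-fold line in neuron-like nuclei was 0 in every injured library in the fit reported and became 1 in 4 cases: at 14 dpi with nuclei thinned to 1000 UMIs (SLC12A5), and at 30 dpi without doublet removal (SLC12A5), against the mean of the 3 intact libraries (SLC12A5) and with thinned nuclei (GABRA5). The SLC12A5 share of the UMIs of both transporters moved beyond its counting interval in these cases. Thinning gave 47.1% (cervical), 49.9% (lumbar), 58.2% (7 dpi), 41.2% (14 dpi), 41.9% (30 dpi) and 47.1% (6 mpi). Equal weight to SLC17A6-high and GAD-high nuclei gave 53.1% (cervical), 58.2% (thoracic), 52.1% (lumbar), 53.6% (7 dpi), 45.4% (14 dpi), 42.0% (30 dpi) and 44.6% (6 mpi). At 30 dpi it was 38.2% without doublet removal. It was 40.8% there without sub-clusters that had at least 2 markers of other classes among their 10 leading genes. This rule gave 56.9% in the thoracic library, where clusters at resolution 2 gave 52.5%. The rule dropped N4 and N9, the latter an SLC17A6-high sub-cluster led by NMUR2 and C1QTNF7, and it kept N10 and N33. Leaving out N4, N10 and N33, an alternative chosen after seeing the data, gave 51.8% (cervical), 57.2% (thoracic) and 41.3% (30 dpi). The cause of these moves was not tested. Under thinning the intact cervical library and the one at 6 mpi both came to 47.1%, so these 2 were no longer apart, while those at 14 dpi and 30 dpi stayed below all intact libraries. Of 292 alternative values of single members' log2 ratios, 210 stayed within their counting interval and 82 moved beyond it, and 13 of 36 ratios changed sign under some setting. These 36 were the members in neuron-like nuclei, GABRA2 in oligodendrocyte-like nuclei and GLRA1 in microglia-like nuclei. None of the called ratios among the 36 changed sign. The calls in CHAT-high, OPC-like and astrocyte-like nuclei, and that of GABRA5 in microglia-like nuclei, were not among them. SLC12A5 kept its sign at 14 dpi (-0.66 to -0.37), 30 dpi (-0.66 to -0.45) and 6 mpi (-0.47 to -0.23) and changed it at 7 dpi (-0.10 to 0.17). Median-of-ratios scaling shifted log2 ratios by at most 0.07. The settings for GABRA2 in oligodendrocyte-like and GLRA1 in microglia-like nuclei, and the restriction to SLC17A6-high sub-clusters with little SLC6A5, were also chosen after seeing the data.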

Other observations

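Some of the 50 related genes also differed in oligodendrocyte-like nuclei. Those named here were picked after their values were seen. How many of the list were called in that class is not given here, so they do not stand for the list. Of all genes tested in that class 28.2%, 17.8%, 19.4% and 26.5% were called in the injured libraries. SLC12A4 (KCC1) was 8.1, 7.4 and 5.7 CPM in the intact libraries and 11.9, 9.3, 9.3 and 13.6 CPM in the injured ones, called higher in all 4. GABBR1, the ligand-binding GABA-B subunit, was 6.8, 6.2 and 7.3 CPM in intact cord and 11.8, 14.2, 5.6 and 17.99 CPM after injury, below the intact range at 30 dpi and above it in the other injured libraries. The GABA-A subunit gene GABRG3 was 79.95, 68.9 and 69.9 CPM in the intact and 131, 40.6, 51.2 and 21.7 CPM in the injured libraries, and GABRB1 was 34.8, 27.2 and 36.1 CPM and then 30.8, 60.8, 13.4 and 32.6 CPM, so each lay above the intact range in 1 injured library and below it in at least 1 other. SLC12A7 was 3.5, 2.5 and 2.1 CPM in intact cord, where the cervical library was past 1.5-fold of the lumbar one, and 0.64, 0.78, 1.99 and 0.68 CPM after injury, on 14, 12, 54 and 6 UMIs.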
